A study of Mus musculus with 28 samples.

Results

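The difference between the pancreas and the liver in their response to human APOBEC3B (A3B) was measured by RNA-seq in 16 of the 28 samples of the series. These are the 16 samples with kallisto quantifications from both organs: for each organ, 6 A3B mice and 2 controls. A3B mice carried a tetracycline-operated human A3B fused to turboGFP at the ColA1 locus and the CAGs-rtTA3 driver, and controls carried the A3B transgene without that driver. All 16 samples came, by their labels, from mice fed 625 ppm doxycycline (dox) food for 10 days. The methods of the study likewise have control littermates on dox, while a figure legend describes its 2 control animals as given none. If the controls of this comparison had no dox, the diet and A3B cannot be told apart. The CAGs promoter is active in most cell types and so is not limited to hepatocytes or acinar cells. The Rosa26 rtTA of the embryonic stem cells from which the line was made had been bred out. Both organs were sequenced from A3B mice 44, 49, 125, 137 and 153 and from control mice 45 and 168. A3B mouse 48 gave only a liver and A3B mouse 53 only a pancreas. Groups were taken from the sample titles. The genotype labels of 4 pancreases go against their titles: A3B pancreases 44 and 137 are labelled as carrying the A3B transgene alone, and control pancreases 45 and 168 as carrying the driver too, while the livers of the same mice carry labels that match the titles. Grouping the pancreases by these labels left 0 genes called in the pancreas and 30 in the interaction by edgeR's quasi-likelihood test (1598 and 3236 genes at an unadjusted p under 0.05). The human transgene was not among the mouse transcripts quantified, so it could not be used to check the labels. Pancreases 44 and 137 stood with the other A3B pancreases, and 45 and 168 apart from all 6, in the sum of acinar markers and in the share of counts on the top 10 genes, both given below.

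A3B is a cytosine deaminase that acts on single-stranded DNA and belongs to a family of enzymes that restrict viruses. Hepatocytes, the main cells of the liver, make plasma proteins, bile acids, cholesterol and fatty acids. Pancreatic acinar cells, the main cells of the exocrine pancreas, make digestive enzymes under transcription factors such as BHLHA15 (also called MIST1), RBPJL and PTF1A. A response in both tissues can be of the same direction, of opposite directions or limited to either tissue, and the interaction term, the A3B effect in the pancreas minus the A3B effect in the liver, was used to sort genes into these classes.

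Estimated counts summed to between 65161064 and 118976013 per sample, and 19949 genes passed the filter on low counts. Levels of a gene are given as CPM, its counts scaled to a library of fixed size by the TMM factors of edgeR, and effects as log2 fold changes ± SE. TPM, which also accounts for transcript length, is used for sums over marker genes. In control pancreases 45 and 168, 62.2% and 59.5% of all counts fell on just 10 genes. The share of the top 10 genes was 12% to 20.4% in A3B pancreases and 13.9% to 24.8% in the 8 livers. TMM sets effects relative to the bulk of genes: the log2 fold changes of all tested genes had medians of 0.16 (liver) and 0.18 (pancreas), against 0.71 and 2.28 when libraries were scaled by their totals. Directions below are on the TMM scale, that is relative to the bulk of genes, and many pancreas values that are negative on it are positive under library totals. The value under library totals is given where a printed pancreas median of a list, or a printed pancreas effect of a called list gene, turns sign. The tissue labels fit the markers: the 16 acinar markers summed to 82703 to 215035 TPM in A3B pancreases and 460713 and 462956 TPM in control pancreases, but to at most 640.4 TPM in a liver. The 16 hepatocyte markers summed to at least 56751 TPM in every liver and at most 1459 TPM in a pancreas. In bulk tissue, fewer cells of a type and less RNA per cell cannot be told apart.

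The interaction was called at an adjusted p under 0.05 for 2358 genes, 1363 with a more positive response in the pancreas (6.83% of the genes tested) and 995 with a more negative one (4.99%). Within the tissues, 809 genes rose (4.06%) and 1148 fell (5.75%) in the liver, and 2600 rose (13.0%) and 2130 fell (10.7%) in the pancreas. Which direction held more of the calls depended on the scaling. Of the calls in the liver 41.3% were higher here, 49.0% with TMM within each tissue, 51.3% by DESeq2, 75.0% by limma on TPM and 84.0% under library totals. In the pancreas 55.0% were higher here, 50.6% with TMM within each tissue and by DESeq2, 98.4% by limma and 98.7% under library totals. The liver count depends on the joint fit, since a fit of the livers alone called 635 genes. Of the 598 genes called in both tissues, 478 had the same direction, which is 24.4% of the liver calls and 10.1% of the pancreas calls, and 120 had opposite directions, all of them with the interaction called as well. Among the opposite genes, 27 rose in the liver and fell in the pancreas (0.135%) and 93 fell in the liver and rose in the pancreas (0.466%). A response was classed as restricted to a tissue when that tissue and the interaction were called while the other tissue was not called and its log2 fold change lay within 1 of 0. By this rule 713 genes rose (3.57%) and 479 fell (2.40%) in the pancreas, and 127 rose (0.637%) and 272 fell (1.36%) in the liver. Shared genes comprised 255 that rose (1.28%) and 223 that fell (1.12%) in both tissues. The direction of the pancreas response of the falling classes rests on the TMM scale: scaled by library totals, the pancreas effect stayed negative for 7 of the 27 opposite genes that fell in the pancreas, for 193 of the 479 pancreas-restricted falling genes and for 45 of the 223 shared falling genes. The interaction kept its sign under that scaling for all 1363 genes called higher but for 853 of the 995 called lower. Counts also rest on single controls: without control liver 45, control liver 168 or control pancreas 45, the interaction was called for 544, 697 or 708 genes and 24, 17 or 45 genes were opposite. Without A3B liver 49, 220 genes were opposite, without A3B liver 137, 66, and without control pancreas 168, 72.

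**Figure D1:**
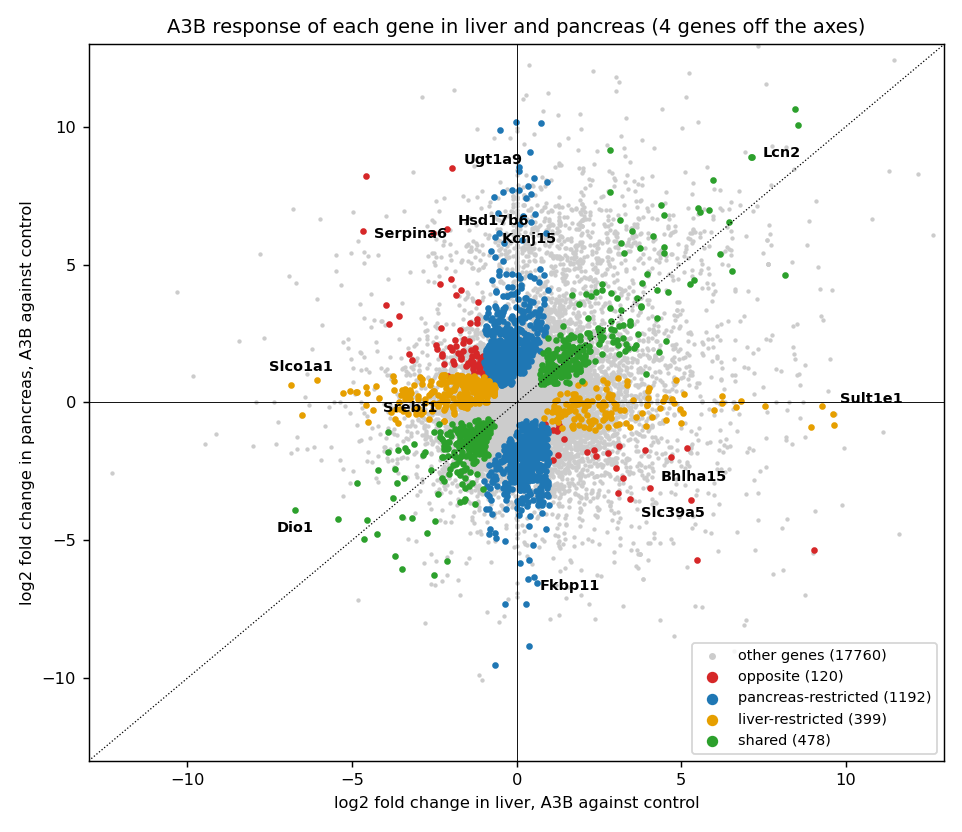
Log2 fold change of A3B against control in the liver (x axis) and in the pancreas (y axis) for each tested gene, with the 120 opposite, 1192 pancreas-restricted, 399 liver-restricted and 478 shared genes in colour and equal responses on the dotted line. Opposite genes lie in the upper left (93) and lower right (27) quadrants.

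Because 7 mice gave both tissues, the difference between pancreas and liver could be taken within each mouse. For 2268 of the 2358 interaction genes (96.2%) the differences of all 5 A3B mice lay on the called side of both control mice, whereas over all genes tested the 5 mice lay on either side of both controls for 35.3%. These are the samples that made the calls, so the share is a description. With the mouse as a block in the 14 paired samples, 1567 genes were called, 1335 of them with the sign of the unblocked interaction. Of the 120 opposite genes, 116 were also called with the block (24 of 27 and 92 of 93). In the restricted classes these numbers were 492 of 713 rising and 221 of 479 falling genes of the pancreas, and 50 of 127 rising and 176 of 272 falling genes of the liver.

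**Figure D2:**
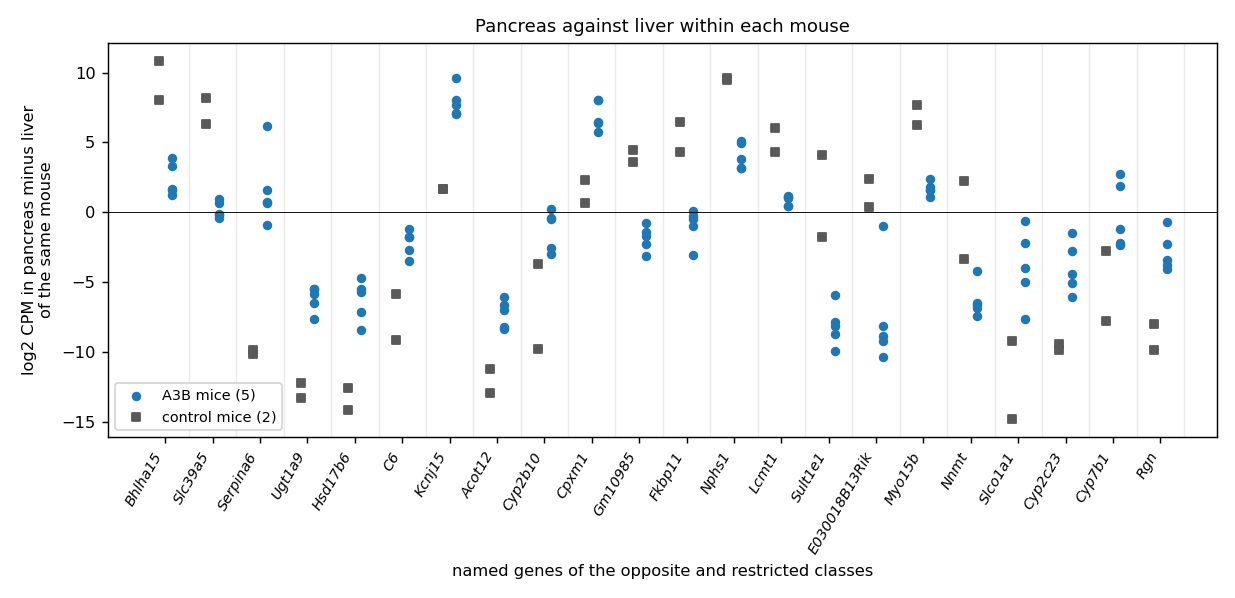
Log2 CPM in the pancreas minus log2 CPM in the liver of the same mouse for the 22 named genes of the opposite and restricted classes, with 5 A3B mice as circles and 2 control mice as squares. For each of these genes all 5 A3B mice lie on one side of both control mice, with the narrowest gaps for Cyp7b1, Cyp2b10 and Nnmt. The naming rule required A3B samples and controls to be apart in each defining tissue, so this is a description.

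Genes that rose in the liver and fell in the pancreas were led by Bhlha15 and Slc39a5, the only 2 of the 27 that passed the rule for naming. Bhlha15 (ENSMUSG00000052271.7, chr5:144190286-144194441) encodes the acinar transcription factor that drives the secretory programme. It stood at 0.217 and 0.559 CPM in control livers 45 and 168 and at 1.97 to 14.4 CPM with a median of 6.16 in A3B livers. In the pancreas it stood at 442 and 152 CPM in controls and 14.1 to 72.4 CPM with a median of 28.8 in A3B mice. Every A3B liver was above both control livers and every A3B pancreas below both control pancreases, as the naming rule required. Its log2 fold changes were 4.05 ± 0.94 in the liver (adjusted p = 0.0146) and -3.10 ± 0.64 in the pancreas (adjusted p = 0.00313), and the interaction was -7.15 ± 1.20 (95% interval -9.70 to -4.60, adjusted p = 0.00344). Slc39a5 (ENSMUSG00000039878.13, chr10:128395931-128401229) encodes a zinc importer of the basolateral membrane. Its level was 3.94 and 0.532 CPM in control livers, 9.99 to 44.2 CPM with a median of 19.9 in A3B livers. It was 319 and 161 CPM in control pancreases and 9.32 to 33.1 CPM with a median of 18.9 in A3B pancreases. A3B livers and A3B pancreases overlapped in its level, whereas the control pancreases were far above the control livers, and the interaction was -6.94 ± 1.03 (adjusted p = 0.00184). Zg16, which encodes a zymogen granule lectin, fell from 37159 and 20172 CPM to 1454 to 4263 CPM with a median of 3078 in the pancreas. In the liver it was called higher at 1.48 to 22.9 CPM with a median of 13.7 against 2.60 and 0.627 CPM, with an adjusted p of 0.0498 although the groups overlapped. The acinar markers had a median sum in A3B livers of 19.8 TPM against 80.2 and 139 TPM in the controls. The groups overlapped, since A3B liver 153 reached 640.4 TPM and another A3B liver 339 TPM. The part of acinar RNA in the liver values of these genes was not tested. By TPM, each of the 27 genes stood in A3B livers at 0.434% or more of its control pancreas level. The acinar sum stood at 0.139% or less. These shares differ from ratios of the CPM levels above, and the genes were chosen for a rise in the liver, so the shares are a description. Bhlha15 and Slc39a5 kept a negative pancreas effect under library totals (-0.74 and -1.24), as did 7 of the 27 genes in all.

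Genes that fell in the liver and rose in the pancreas included enzymes and secreted proteins of hepatocytes. Serpina6 (ENSMUSG00000060807.7, chr12:103646630-103657212), which encodes corticosteroid-binding globulin, stood at 615 and 361 CPM in control livers and 1.06 to 42.6 CPM with a median of 16.5 in A3B livers. In the pancreas it stood at 0.642 and 0.309 CPM in controls and 12.7 to 79.0 CPM with a median of 24.0 in A3B mice, so that A3B pancreases and A3B livers overlapped. The log2 fold changes were -4.67 ± 0.80 in the liver and 6.21 ± 1.33 in the pancreas, and the interaction was 10.88 ± 1.69 (adjusted p = 0.00249). Hsd17b6 (ENSMUSG00000025396.7, chr10:127990936-128007611), which encodes a steroid and retinol dehydrogenase, fell in the liver from 426 and 388 CPM to 29.8 to 162 CPM with a median of 92.5. Its pancreas level was 0.299 to 3.56 CPM with a median of 0.933 in A3B mice. With 1 count in control 45 and 0 in control 168, the A3B mean was at least 12.7-fold higher, taken against 3 counts per control library. Ugt1a9 (ENSMUSG00000090175.1, chr1:88070800-88218997), a glucuronosyltransferase that shares exons with the other Ugt1a genes so that its counts are uncertain, fell in the liver from 102 and 210.2 CPM to 28.4 to 77.4 CPM with a median of 32.6. It had 0 counts in both control pancreases and 0.159 to 0.776 CPM with a median of 0.475 in A3B pancreases, at least 4.55-fold higher by the same floor. The fitted interactions of both genes, 8.43 (adjusted p = 0.00621) and 10.45 (adjusted p = 0.00298), depend on the prior count. C6 (ENSMUSG00000022181.16, chr15:4727175-4814967), a component of the terminal complement complex, stood at 32.4 and 421 CPM in control livers, which differ widely, and at 2.06 to 26.5 CPM with a median of 16.2 in A3B livers. In the pancreas C6 was at 0.543 and 0.729 CPM in controls and 2.42 to 7.52 CPM with a median of 4.48 in A3B mice, and its interaction was 6.71 ± 1.31 (adjusted p = 0.00735).

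Further opposite genes came from the gene lists described later. Me1, the cytosolic malic enzyme that makes NADPH for lipid synthesis, had log2 fold changes of -1.62 ± 0.34 in the liver and 1.88 ± 0.41 in the pancreas. Gstm1, a glutathione transferase with close paralogs among which reads may be split, had -1.64 ± 0.44 and 2.15 ± 0.55. Slc39a4, an intestinal-type zinc importer, was at 109.8 and 136 CPM in control livers and 3.41 and 2.96 CPM in control pancreases, but at 11.2 to 52.9 CPM with a median of 21.3 in A3B livers and 11.6 to 40.0 CPM with a median of 18 in A3B pancreases. The control tissues were far apart and the A3B tissues overlapped. Bcl3, an atypical IκB protein, was at 22.8 and 37.1 CPM in control livers and 2.12 and 6.82 CPM in control pancreases. In A3B mice it was at 9.26 to 14.6 CPM with a median of 13.3 in livers and 11.6 to 17.1 CPM with a median of 14.4 in pancreases, again with overlap.

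**Figure D3:**
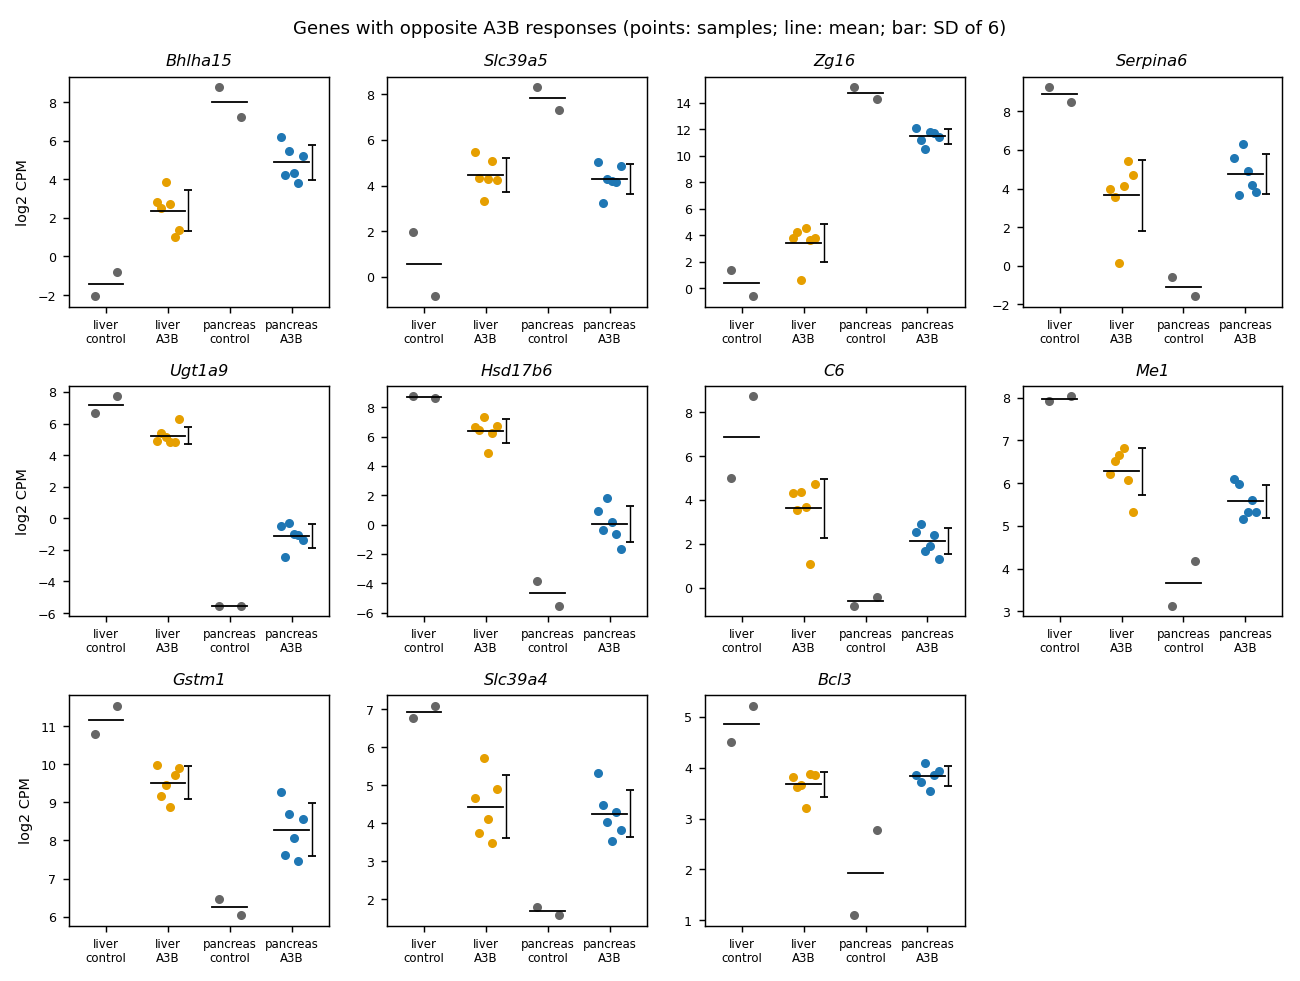
Log2 CPM of 11 genes with opposite responses in every sample of the 4 groups, with a line at each mean and a bar for the SD of the 6 A3B samples. Control pancreases lie above control livers for Bhlha15, Slc39a5 and Zg16 and below them for the other 8 genes, and the A3B means of the tissues lie closer together than the control means for all 11.

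This narrowing between the tissues was described over whole classes. Among the 93 genes that fell in the liver and rose in the pancreas, 88 were higher in control livers than in control pancreases, and the absolute difference between the tissues was smaller in A3B mice for 80 (86.0%), with a median of 0.98 against 2.92 log2 units. Among the 27 of the other direction, 26 were higher in control pancreases and 21 narrowed. The tissue difference was smaller in A3B mice for 58.3% of all genes tested, with medians of 1.01 and 1.21. Restricted genes narrowed too: 86.4% of the falling and 57.5% of the rising ones of the liver, and 74.1% and 73.9% of the pancreas. For shared genes it was 53.4% of the falling and 50.2% of the rising ones. The classes were cut from the same contrasts, so these shares describe them and test nothing. The level of the 93 genes in A3B pancreases was compared with that of hepatocyte RNA as a whole. The hepatocyte markers summed to 195 to 1459 TPM in A3B pancreases and 58.3 and 116 TPM in control pancreases, and 0 of the 16 passed the test in the pancreas. The part of hepatocyte RNA in the pancreas values was not tested as a cause. The 93 genes were chosen for a rise in the pancreas, so the shares that follow are a description. In A3B pancreases the sum of the hepatocyte markers was 0.117% to 0.870% of its level in control livers. The 93 genes reached a median of 59.5% of their control liver level in A3B pancreases. Of them 91 lay above 0.870%, and the lowest was at 0.550%. That median does not describe Hsd17b6 and Ugt1a9, given above. Their A3B pancreas medians were 0.933 and 0.475 CPM, against 426 and 388 CPM and 102 and 210.2 CPM in control livers. The mean level of the 93 genes in A3B pancreases was at least 10 TPM for 67 genes and at least 1 TPM for 89.

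Among the 713 pancreas-restricted genes that rose, Kcnj15 had the largest interaction of those eligible for naming. It encodes an inward-rectifier potassium channel and stood at 2.72 and 1.46 CPM in control pancreases and 72.5 to 118 CPM with a median of 89.4 in A3B pancreases, a log2 fold change of 5.51 ± 0.69 (adjusted p = 0.000109). In the livers it was below 1 CPM in every sample, with a log2 fold change of -0.79 ± 0.50 (adjusted p = 0.343), and the interaction was 6.30 ± 0.80 (adjusted p = 0.000830). Cpxm1, a carboxypeptidase-like protein of the extracellular matrix, rose from 3.56 and 5.90 CPM to 105 to 277 CPM with a median of 166 in the pancreas. It was at 2.26 and 1.17 CPM in control livers and 0.456 to 3.27 CPM with a median of 1.09 in A3B livers (interaction 5.55 ± 0.90, adjusted p = 0.00280). Acot12, a cytosolic acetyl-CoA thioesterase of the liver, reached only 0.307 to 1.51 CPM with a median of 1.02 in A3B pancreases. Its control pancreases had 1 and 0 counts, so the mean was at least 8.85-fold higher, while its livers stood at 167 and 169.6 CPM in controls and 102 to 172 CPM with a median of 121 in A3B mice. Cyp2b10, a drug-metabolizing P450 that responds to the receptor CAR, rested on 0 and 7 counts in the control pancreases and reached 1.52 to 18.1 CPM with a median of 8.63 in A3B pancreases. Its interaction of 6.13 ± 1.63 (adjusted p = 0.0256) was not called with the mouse block (adjusted p = 0.101). Control livers were higher than control pancreases for 643 of the 713 genes.

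Of the 479 pancreas-restricted genes that fell, Fkbp11, a prolyl isomerase of the secretory pathway, fell from 999.6 and 402 CPM to 5.70 to 12.7 CPM with a median of 7.79. It was at 6.23 to 69.8 CPM with a median of 11.1 in A3B livers against 11.3 and 20.5 CPM in control livers. Its interaction was -6.77 ± 1.24 (adjusted p = 0.00543). Lcmt1, the methyltransferase that activates protein phosphatase 2A, fell from 691 and 214 CPM to 10.3 to 16.9 CPM with a median of 14.0 in the pancreas. It was at 10.3 and 10.7 CPM in control livers and 4.79 to 11.3 CPM with a median of 7.70 in A3B livers (interaction -4.66 ± 0.57, adjusted p = 0.000613). Nphs1, which encodes nephrin and is also transcribed in the pancreas, fell from 106 and 60.5 CPM to 0.948 to 5.48 CPM with a median of 1.61 (interaction -5.67 ± 1.10, adjusted p = 0.00710), and its livers were all below 1 CPM. Gm10985, a predicted gene, fell from 5.43 and 1.94 CPM to at most 0.0813 CPM, with 4 of 6 A3B pancreases at 0. The size of its fitted interaction (-6.96 ± 2.01, adjusted p = 0.0351) therefore depends on the prior count and is not a measured fold. The naming rule took only genes that keep their signs under library totals, so the pancreas effects of these 4 on that scale are a description, at -4.06 for Fkbp11, -2.62 for Lcmt1, -2.86 for Nphs1 and -4.85 for Gm10985.

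Liver-restricted genes were fewer, with 127 that rose. Sult1e1, the estrogen sulfotransferase, stood at 0.377 and 0.0546 CPM in control livers and 74.5 to 241 CPM with a median of 181 in A3B livers. In the pancreas it stood at 0.0988 and 1.30 CPM in controls and 0.130 to 1.20 CPM with a median of 0.511 in A3B mice. The liver log2 fold change was 9.60 ± 1.36 (adjusted p = 0.000754) and the interaction -10.03 ± 1.48 (adjusted p = 0.00184). Nnmt, which methylates nicotinamide, was at 44.4 and 2.01 CPM in control livers, which were far apart, and at 197 to 1169 CPM with a median of 426 in A3B livers (interaction -4.40 ± 1.23, adjusted p = 0.0310). Myo15b, an unconventional myosin, rose from 0.685 and 0.368 CPM to 9.33 to 28.1 CPM with a median of 15.7 in the liver. It stood at 52.9 and 78.4 CPM in control pancreases and 29.8 to 100 CPM with a median of 52.5 in A3B pancreases (interaction -5.22 ± 0.70, adjusted p = 0.00103). E030018B13Rik, a gene of unknown function, ranged over 0.891 to 122 CPM with a median of 26.3 in A3B livers against 0.0571 and 0.150 CPM in controls (interaction -9.80 ± 2.26, adjusted p = 0.0149). With the mouse block, the interactions of Nnmt (adjusted p = 0.0758) and E030018B13Rik (adjusted p = 0.0785) were not called.

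Of the 272 liver-restricted genes that fell, Slco1a1, an organic anion transporter, had the largest interaction among those eligible for naming. It stood at 549 and 608 CPM in control livers and 2.49 to 12.8 CPM with a median of 3.98 in A3B livers, a log2 fold change of -6.86 ± 1.23 (adjusted p = 0.00355). Its pancreases had at most 2.57 CPM, and its interaction of 7.48 ± 2.24 (adjusted p = 0.0431) was lost with the mouse block (adjusted p = 0.0963). Cyp2c23, an epoxygenase of arachidonic acid, fell from 503 and 474 CPM to 5.23 to 40.5 CPM with a median of 9.73 (interaction 5.24 ± 1.40, adjusted p = 0.0267). Rgn, which encodes regucalcin, an enzyme of ascorbate synthesis, fell from 1585 and 1149 CPM to 20.6 to 173 CPM with a median of 33 (interaction 5.14 ± 1.38, adjusted p = 0.0265). Cyp7b1, the oxysterol hydroxylase of the alternative bile acid pathway, stood at 29.3 and 373 CPM in control livers, again far apart, and 0.691 to 17.5 CPM with a median of 5.26 in A3B livers. Its interaction of 5.23 ± 1.58 had an adjusted p of 0.0444, and of 0.205 with the mouse block.

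Shared genes were called in the same direction in both tissues. Lcn2, which encodes the iron-siderophore binder lipocalin 2, rose in the liver from 8.83 and 4.31 CPM to 347 to 1646 CPM with a median of 788. In the pancreas it rose from 9.43 and 4.64 CPM to 1229.6 to 5783 CPM with a median of 2964. The log2 fold changes were 7.13 ± 1.0 (adjusted p = 0.000565) and 8.90 ± 1.08 (adjusted p = 9.06e-05), and their difference of 1.77 had an interval of -0.19 to 3.72. Defb1, a beta-defensin, had 6.56 ± 0.95 in the liver and 4.77 ± 0.86 in the pancreas, with an interval of the difference of -3.75 to 0.17. Chil3, a chitinase-like protein of macrophages, and Gpnmb, a glycoprotein of macrophage lysosomes, had liver values of 5.59 ± 1.69 and 6.17 ± 1.74 with adjusted p of 0.0492 and 0.0366. Their pancreas values were 6.90 ± 1.83 and 5.40 ± 1.65, with adjusted p of 0.0140 and 0.0276. Among the genes that fell in both tissues, Dio1, which activates thyroid hormone, went from 195 and 209.5 CPM to 0.741 to 6.74 CPM with a median of 0.956 in the liver. In the pancreas it went from 8.79 and 12.1 CPM to 0.340 to 1.21 CPM with a median of 0.632. The interaction of Dio1 was 2.84 ± 1.09 (adjusted p = 0.0988) and was called with the mouse block (3.93, adjusted p = 0.0139). Aqp8, a water channel of hepatocytes and acinar cells, had -3.68 ± 0.88 in the liver and -5.58 ± 0.92 in the pancreas. Sdr9c7, a dehydrogenase, had -4.26 ± 0.76 and -4.78 ± 0.78. These 3 falling genes, which the naming rule required to keep their signs under library totals, had pancreas effects on that scale of -1.89, -3.88 and -2.51.

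**Figure D4:**
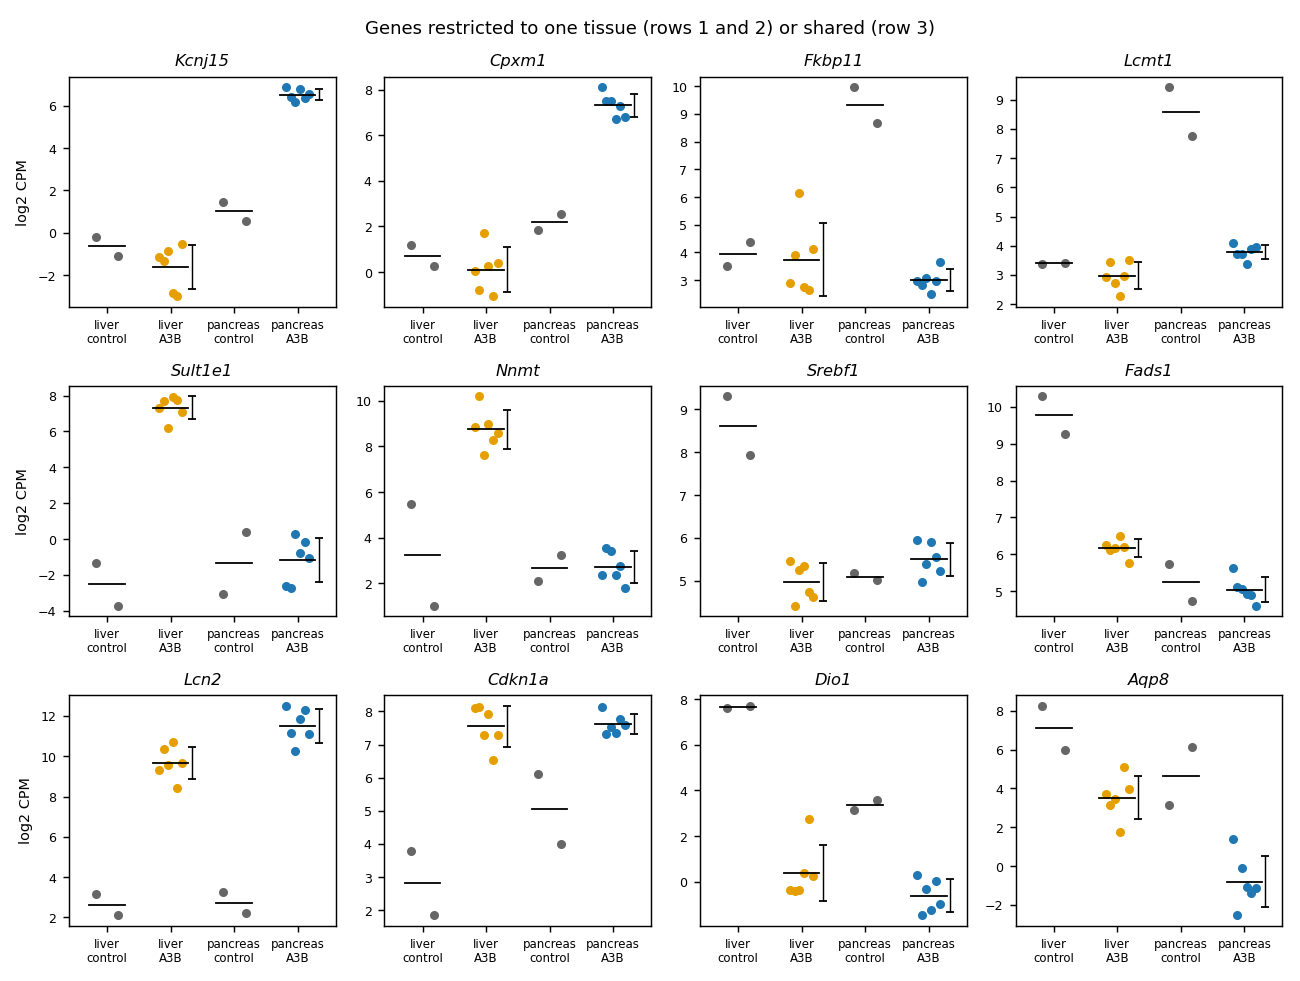
Log2 CPM in every sample of 4 pancreas-restricted genes (top row), 4 liver-restricted genes (middle row) and 4 shared genes (bottom row), with a line at each mean and a bar for the SD of the 6 A3B samples. In the top row the A3B samples leave the controls in the pancreas, in the middle row in the liver, and in the bottom row in both tissues.

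Of the 478 shared genes, 18 also passed the interaction test (8 rising and 10 falling), 13 of them with the larger change in the pancreas. Usp18, Ifit1 and Mx2, which are interferon-induced and were chosen here after their values were seen, rose by 3.26, 2.10 and 1.67 in the liver and by 5.42, 3.94 and 3.91 in the pancreas on the log2 scale. With the mouse block the interaction of Ifit1 was not called (adjusted p = 0.120). The other shared genes did not pass that test, which does not show that their responses were equal.

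Gene lists, written with earlier results of these data known, were then read against the background of all genes, for which the interaction median was 0.03. The shares of all genes called, with which the counts of members below are to be compared, were 4.06% higher and 5.75% lower in the liver, 13.0% and 10.7% in the pancreas, and 6.83% and 4.99% in the interaction. The acinar digestive enzymes had median log2 fold changes of -3.74 (pancreas) and 1.62 (liver). Of 29 tested, 12 fell in the pancreas, 1 rose in the liver (Zg16), and edgeR's interaction was called lower for 5, with a median of -5.11 that stayed negative at -3.23 under library totals, where the pancreas median was -1.47. Spink1, the trypsin inhibitor of acinar granules, fell from 12207 and 3698 CPM to 242 to 430.2 CPM with a median of 351 (interaction -8.25 ± 1.52, adjusted p = 0.00537). Among 12 acinar transcription factors, Bhlha15 and Rbpjl were called lower in the interaction. Rbpjl, the acinar partner of PTF1A, fell from 1104 and 519 CPM to 8.22 to 180.2 CPM with a median of 34.5 in the pancreas and was at most 0.583 CPM in the livers (interaction -5.52 ± 1.56, adjusted p = 0.0332, and 0.0786 with the mouse block). The pancreas median of these factors was -0.37, and 1.75 under library totals. Of the others, Nr5a2 rose in the pancreas by 0.84 and Gata6 in the liver by 1.43 on the log2 scale. Genes of ER folding and the unfolded protein response had 14 of 31 lower and 0 higher in the pancreas, 0 lower and 2 higher in the liver, and 7 lower in the interaction. They include Selenos, which helps to retrieve misfolded proteins from the ER (-0.12 ± 0.36 in the liver and -2.65 ± 0.33 in the pancreas), and Manf, an ER-resident secreted factor (0.83 ± 0.38 and -1.53 ± 0.34). Under library totals the pancreas effect of Manf was 0.74. The pancreas median of the list was -0.72, and 1.45 under library totals. The median interaction, -0.73, turned to 0.95 under library totals, where the median of all genes was 1.59.

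The integrated stress response, which raises amino acid synthesis and transport through ATF4, had 6 of 35 members lower and 2 higher in the interaction. Pycr1, the last enzyme of proline synthesis, fell in the pancreas from 98.5 and 32.9 CPM to 0.874 to 4.14 CPM with a median of 1.74 and had 1.28 ± 0.74 in the liver (adjusted p = 0.296), so that its interaction was -6.31 ± 1.10 (adjusted p = 0.00401). Fgf21, a hormone of stress and fasting that the exocrine pancreas also makes, fell in the pancreas from 12.7 and 2.30 CPM to 0.0309 to 0.300 CPM with a median of 0.176. In the livers it was at 1.72 and 2.58 CPM in controls and 1.02 to 44.4 CPM with a median of 16.4 in A3B mice with overlapping groups (2.96 ± 1.26, adjusted p = 0.150), and the interaction was -8.40 ± 1.82 (adjusted p = 0.0107). The other called members were Atf4, Phgdh, Stc2 and Cth, with interactions of -1.72, -6.63, -2.68 and -3.08, and in the other direction Cebpb and Aars, with 1.82 and 1.66. The pancreas median of this list was -0.52, and 1.75 under library totals. The median interaction of this list was -1.27, and 0.34 under library totals.

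Many ribosomal and respiratory chain genes fell in the A3B pancreas relative to other genes. Of 50 cytosolic ribosomal protein genes, 40 fell in the pancreas, 0 passed the test in the liver in either direction, and 28 were called lower in the interaction. Rpl35 went from 5439.8 and 1743 CPM to 195 to 447 CPM with a median of 393 in the pancreas. It stood at 63.6 and 87.1 CPM in control livers and 63.0 to 379.8 CPM with a median of 88.7 in A3B livers. Rpl14 had an interaction of -2.47 ± 0.59 (adjusted p = 0.0165, and 0.0742 with the mouse block). Of the 13 respiratory chain genes encoded by mitochondrial DNA, all 13 fell in the pancreas, 0 passed the test in the liver, and 12 were called lower in the interaction, with a median of -4.0. For mt-Nd5, a subunit of complex I, the levels were 1695 and 892 CPM in control and 148 to 354 CPM with a median of 234 in A3B pancreases. They were 2794 and 2481 CPM in control and 2882 to 11130.0 CPM with a median of 4522 in A3B livers. mt-Nd6, the complex I subunit encoded on the other strand, had an interaction of -4.38 ± 0.84 (adjusted p = 0.00639). Of 54 nuclear-encoded respiratory chain genes, 39 fell in the pancreas, 6 fell in the liver and 26 were called lower in the interaction, such as Ndufb9 of complex I (-3.58 ± 0.67, adjusted p = 0.00572) and Atp5h of the ATP synthase (-2.38 ± 0.45, adjusted p = 0.00616). The pancreas medians were -1.68 for the ribosomal, -3.20 for the mitochondrially encoded and -1.44 for the nuclear-encoded respiratory genes. Under library totals they were 0.61, -0.78 and 0.78, so that only the mitochondrially encoded genes kept a negative median. Under library totals the median interactions were -0.53 for the ribosomal, -2.15 for the mitochondrially encoded and 0.24 for the nuclear-encoded respiratory genes, so the last of these changes sign while all lie below the 1.59 of all genes. The pancreas effects of Rpl14 and Atp5h turned positive under that scaling (0.50 and 0.35), and those of Rpl35 and mt-Nd5 stayed negative (-0.90 and -0.15).

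Most of the tested sterol and fatty acid synthesis genes fell in the liver. In the list of cholesterol synthesis and uptake, 16 of 26 fell in the liver and 0 rose, 2 fell and 2 rose in the pancreas, and the interaction was called higher for 10 and lower for 0. The liver median was -2.09 and the pancreas median -0.40 (1.76 under library totals), and 9 members were liver-restricted falling genes. Pmvk, which phosphorylates mevalonate phosphate, fell in the liver from 78.5 and 49.8 CPM to 5.16 to 12.7 CPM with a median of 7.74. It stood at 7.95 and 8.94 CPM in control and 5.98 to 8.41 CPM with a median of 7.51 in A3B pancreases (interaction 2.80 ± 0.42, adjusted p = 0.00184). Hsd17b7, a 3-ketosteroid reductase of the same pathway, differed from this, with -0.52 ± 0.25 in the liver (adjusted p = 0.196) and 1.5 ± 0.29 in the pancreas (adjusted p = 0.00194). In fatty acid synthesis and desaturation, 13 of 18 fell in the liver, 2 fell and 1 rose in the pancreas, and 9 were called higher in the interaction. Srebf1, the transcription factor that drives lipogenic genes, fell in the liver from 628 and 244 CPM to 21.4 to 44.2 CPM with a median of 32.5. In the pancreas Srebf1 was at 36.4 and 32.2 CPM in controls and 31.5 to 61.9 CPM with a median of 44.6 in A3B mice, which is close to the A3B livers, and the interaction was 4.18 ± 0.55 (adjusted p = 0.000893). Fads1, the delta-5 desaturase, had -3.68 ± 0.30 in the liver and -0.25 ± 0.33 in the pancreas (interaction 3.43 ± 0.50, adjusted p = 0.00143).

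Among 28 genes of fatty acid oxidation under PPAR alpha, 12 rose and 1 fell in the pancreas, 2 rose and 3 fell in the liver, and the interaction was called higher for 10 and lower for 2. Acot1, an acyl-CoA thioesterase, had log2 fold changes of 1.58 in the liver and 5.93 in the pancreas, with an interaction of 4.35 ± 1.08 (adjusted p = 0.0197). Acadl, the long-chain acyl-CoA dehydrogenase of mitochondrial beta oxidation, had 0.11 in the liver and 2.26 in the pancreas, with an interaction of 2.15 ± 0.40 (adjusted p = 0.00542). Both were described after their values were seen. The members called higher included Acot1, Cpt1a, Ppara, Acaa2, Acadl, Hadha, Cpt2 and Hadhb, with interactions between 1.55 (Hadhb) and 4.35 (Acot1). The interaction was lower for Fgf21 and for the coactivator Ppargc1a (2.77 in the liver and 0.20 in the pancreas). For bile acid synthesis and transport, 3 of 18 fell in the liver and 3 rose in the pancreas, with 4 called higher in the interaction, beside 5.75%, 13.0% and 6.83% of all genes. Hsd3b7, which acts on 7-hydroxylated sterols, had -2.15 ± 0.31 in the liver and 0.27 ± 0.35 in the pancreas, and the efflux pump Abcc3 had -0.70 ± 0.36 and 1.79 ± 0.43 with adjusted p of 0.239 and 0.00711.

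Interferon-stimulated genes, which the JAK-STAT pathway switches on through the factor ISGF3, rose in the pancreas for the most part. Of 45, 35 rose in the pancreas and 6 in the liver, 0 fell in either, and the interaction was called higher for 20 and lower for 0. Their log2 fold changes had medians of 2.58 (pancreas) and 0.51 (liver). Of these genes 14 were pancreas-restricted and 5 shared. Bst2, which encodes the virus-tethering protein tetherin, rose in the pancreas from 22.4 and 17.2 CPM to 77.3 to 145 CPM with a median of 129.8. Its livers stood at 171 and 158 CPM in controls and at the lower 38.3 to 137 CPM with a median of 82.7 in A3B mice. The liver difference did not pass the test (adjusted p = 0.119), and the interaction was 3.58 ± 0.59 (adjusted p = 0.00280). Dtx3l, a ubiquitin ligase that pairs with PARP9, had 2.93 ± 0.40 in the pancreas and 0.17 ± 0.33 in the liver (interaction 2.76 ± 0.48, adjusted p = 0.00401). ISGF3 binds the interferon-stimulated response element, searched here as GAAANNGAAA on both strands, overlapping matches counted as found, in RefSeq promoters (GRCm38.p6), from 250 bases before to 50 after each start. A match was present for 18 of the 34 list members with a promoter in the table (52.9%) and for 535 of 13712 tested genes (3.90%). Windows of 30 bases from 3 pancreas-restricted genes (Bst2, Igtp, Ifit3) and 2 shared genes (Isg15, Ifit1), chosen after their values were seen to set both classes side by side, read as follows 5′ to 3′ along the gene, with 1 match of each in capitals. All but the Igtp promoter hold more than 1 match, and those of Bst2 and Isg15 overlap.
Bst2 (chr8:71537577-71537606, gene on the - strand): ccaggaaaatGAAACTGAAAggctgcagtt
Igtp (chr11:58199512-58199541, gene on the + strand): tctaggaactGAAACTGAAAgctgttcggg
Ifit3 (chr19:34583397-34583426, gene on the + strand): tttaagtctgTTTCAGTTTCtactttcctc
Isg15 (chr4:156200871-156200900, gene on the - strand): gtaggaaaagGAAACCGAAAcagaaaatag
Ifit1 (chr19:34640794-34640823, gene on the + strand): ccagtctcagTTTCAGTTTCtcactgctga
The element occurs in both classes: the interactions were 3.58 for Bst2, 3.10 for Igtp and 3.70 for Ifit3, all called, 1.59 for Isg15, not called, and 1.84 for Ifit1, called. A match is a description of these letters and not of binding.

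MHC class I presentation had 9 of 18 higher and 1 lower in the pancreas, 0 called in the liver, and 7 higher and 1 lower in the interaction. Tapbp, the tapasin of the peptide-loading complex, had 1.97 ± 0.30 in the pancreas and -0.77 ± 0.25 in the liver (interaction 2.74 ± 0.38, adjusted p = 0.00120). The member that went down was Psmb10, an immunoproteasome subunit, from 1422 and 309 CPM to 59.9 to 91.6 CPM with a median of 80.8 in the pancreas (interaction -3.62 ± 0.67, adjusted p = 0.00543). Proteasome subunits had 13 of 31 higher in the pancreas and 0 in the liver, with 7 called higher in the interaction. Psmd1 and Psmd11, both of the regulatory particle, had interactions of 2.52 ± 0.36 and 1.59 ± 0.36 (adjusted p = 0.00125 and 0.0135). NF-κB subunits and targets had 10 of 24 higher in the pancreas and 3 higher and 1 lower in the liver, and 5 were called higher in the interaction. Tnfaip2, a TNF-induced gene, was at -0.26 ± 0.27 in the liver and 2.54 ± 0.32 in the pancreas. Bcl3, given above among the opposite genes, is a member too. Acute phase proteins had 6 of 27 higher and 1 lower in the pancreas, 2 higher and 1 lower in the liver, and 3 higher and 1 lower in the interaction. Beside them, 4.06% and 5.75% of all genes rose and fell in the liver, and 13.0% and 10.7% in the pancreas. The member called lower in the interaction was Saa1, serum amyloid A1, which was at 4.35 in the liver and -7.88 in the pancreas (interaction -12.22, adjusted p = 0.0311, and 0.142 with the mouse block). Socs3, the feedback inhibitor of cytokine signalling, had 3.27 ± 0.49 in the pancreas and 0.21 ± 0.40 in the liver (interaction 3.06 ± 0.58, adjusted p = 0.00605), and Cp, which encodes ceruloplasmin, 2.58 ± 0.43 and -0.74 ± 0.35 (interaction 3.32 ± 0.53, adjusted p = 0.00264).

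Heat shock genes had 11 of 20 higher and 1 lower in the pancreas, 0 higher and 1 lower in the liver, and 8 higher and 1 lower in the interaction. Hspa1b, an inducible HSP70 whose reads may be split with its near-identical neighbour Hspa1a, fell in the liver from 20.1 and 37.0 CPM to 1.02 to 4.89 CPM with a median of 3.24. It stood at 1.04 and 6.23 CPM in control and 6.62 to 10.9 CPM with a median of 9.17 in A3B pancreases (interaction 4.49 ± 0.83, adjusted p = 0.00542). Hsp90ab1, the constitutive HSP90, had 2.14 ± 0.42 in the pancreas and -0.50 ± 0.36 in the liver (interaction 2.65 ± 0.54, adjusted p = 0.00804), and with the mouse block its adjusted p was 0.0515. The exception was Hspe1, the mitochondrial chaperonin HSP10, which was named after its value was seen. It fell in the pancreas (-1.61, interaction -2.01, adjusted p = 0.0284) while Hspd1, the HSP60 transcribed from the other strand of the same promoter, rose there (0.95, interaction 1.19, adjusted p = 0.0888). Under library totals the pancreas effect of Hspe1 was 0.63 and that of Hspd1 3.18. The heat shock element was searched as GAANNTTCNNGAA on both strands, overlapping matches included, and was found in 4 of 16 members and 0.583% of all tested promoters. Hspd1 and Hspe1 share the stretch shown, which is given because these neighbours moved in opposite directions in the pancreas on the TMM scale, with 1 of its matches in capitals.
Hspe1 (chr1:55088056-55088085, gene on the + strand): ccgttctaGAACCTTCCGGAAggccccgcg
NRF2 targets, the antioxidant genes, had 13 of 28 higher in the pancreas and 0 lower, 1 higher and 5 lower in the liver, and 12 called higher in the interaction, among them the opposite genes Me1 (3.50 ± 0.54, adjusted p = 0.00209) and Gstm1 (3.79 ± 0.71, adjusted p = 0.00598). The antioxidant response element, searched in the same way as TGACNNNGC, was found in 9 of 24 members with a promoter and 16.2% of all tested promoters. The sterol regulatory element, searched as TCACNCCAC, was found in 1 of 18 genes of cholesterol synthesis, 1 of 14 of fatty acid synthesis and 1.41% of all.

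The p53 targets had 5 of 29 higher in the liver, 11 higher and 1 lower in the pancreas, 5 shared rising genes and 1 higher and 1 lower in the interaction. Of all genes 4.06% rose in the liver, 13.0% rose and 10.7% fell in the pancreas, and 6.83% and 4.99% were higher and lower in the interaction, which is above the share of these genes in the interaction. Cdkn1a, which encodes the cell cycle inhibitor p21, rose in the liver from 13.8 and 3.59 CPM to 92.9 to 279 CPM with a median of 200. In the pancreas it rose from 69.2 and 15.9 CPM to 160.5 to 281 CPM with a median of 188. Its interaction of -2.29 ± 0.77 had an adjusted p of 0.0630, and of 0.0171 with the mouse block. Bcl2l1, an inhibitor of apoptosis, had 2.89 ± 0.49 in the pancreas and 0.58 ± 0.41 in the liver (interaction 2.31 ± 0.58, adjusted p = 0.0200), and Rps27l, a ribosomal protein paralog, -3.85 ± 0.61 and -0.32 ± 0.66 (interaction -3.53 ± 1.0, adjusted p = 0.0323, and 0.111 with the block). Glucocorticoid-responsive genes had 7 of 18 higher in the liver and 7 in the pancreas with 0 lower, 5 of them shared. The interaction was called for 1 of these genes, the repressor Bcl6 (1.99 ± 0.36 in the pancreas and 0.31 ± 0.32 in the liver), with an adjusted p of 0.0250, and of 0.0517 with the mouse block.

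Of 19 clock genes, 3 rose and 4 fell in the liver, 3 rose and 1 fell in the pancreas, and 3 were higher and 2 lower in the interaction. Of all genes 4.06% rose and 5.75% fell in the liver, 13.0% and 10.7% in the pancreas, and 6.83% and 4.99% were higher and lower in the interaction, and the same shares stand beside the metallothionein and iron genes that follow. Cry1, a repressor of the clock, rose in the liver from 7.79 and 8.24 CPM to 21.9 to 73.8 CPM with a median of 56.9 and had 0.70 ± 0.36 in the pancreas (interaction -2.06 ± 0.49, adjusted p = 0.0165). Bhlhe40, another repressor, had -1.05 ± 0.38 in the liver and 1.75 ± 0.45 in the pancreas (interaction 2.79 ± 0.59, adjusted p = 0.00958). The other called members were Nr1d1 and Bhlhe41, both of which encode repressors (2.92 and 3.74), and Arntl, which encodes the activator BMAL1 (-1.88). Among 17 metallothionein and iron genes, 4 rose and 2 fell in the liver, 2 rose in the pancreas, and the interaction was called higher for 3, Slc39a4 among them (5.0 ± 0.80, adjusted p = 0.00272), and lower for 1, the transferrin receptor Tfrc. Tfrc rose in the liver from 7.55 and 7.60 CPM to 24.9 to 69.4 CPM with a median of 53.5. It stood at 26.0 and 22.4 CPM in control pancreases and 20.8 to 52.9 CPM with a median of 32.0 in A3B pancreases (interaction -2.24 ± 0.53, adjusted p = 0.0157). Under library totals the interactions of Cry1 and Tfrc were -0.38 and -0.66 beside a median of 1.59.

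Of 27 tested genes of collagens and matrix, 15 rose in the pancreas and 0 in the liver, 2 fell in the liver, and 15 were called higher in the interaction. Col5a2, a fibrillar collagen, stood at 20.5 and 25.4 CPM in control and 112 to 204 CPM with a median of 116 in A3B pancreases. It was at 10.7 and 3.76 CPM in control livers and 1.80 to 6.62 CPM with a median of 2.34 in A3B livers (interaction 3.81 ± 0.70, adjusted p = 0.00542). Col6a1, of the microfibrillar collagen VI, had 2.15 ± 0.41 in the pancreas and -0.49 ± 0.35 in the liver (interaction 2.63 ± 0.52, adjusted p = 0.00749). Summed TPM of markers of other cell types moved with the pancreas values. TPM is a share of all transcripts and is not scaled by TMM, so these sums also move with the share that acinar transcripts take. The 12 fibroblast and stellate markers summed to 1018 to 1587 TPM in A3B and 48.5 and 213 TPM in control pancreases, and the 15 macrophage markers to 2311 to 6619 TPM and 53.6 and 591 TPM. The 12 ductal markers summed to 2611 to 5098 TPM and 176 and 263 TPM, and the 12 endothelial markers to 234 to 325 TPM and 28.3 and 54.3 TPM. In A3B and control livers the same sums were, in this order, 34.7 to 265 TPM and 88.8 and 158 TPM, 46.8 to 1550.1 TPM and 464 and 546 TPM, 227 to 1195 TPM and 238 and 364 TPM, and 49.3 to 288 TPM and 195 and 255 TPM, with overlap between A3B and control in each. Of these markers 5 of 12, 7 of 15, 3 of 12 and 0 of 12 were called higher in the interaction. On the TMM scale the pancreas effects had medians of 1.20, 2.74, 1.62 and 0.51, with 4, 11, 5 and 0 members called higher in the pancreas. The 14 endocrine markers summed to 3772 to 13318 TPM in A3B and 3438 and 3514 TPM in control pancreases, with 0 of 14 called in the interaction by edgeR (3 at an unadjusted p under 0.05, 1 by DESeq2). Their direction turned with the scaling: the pancreas median was -0.71 with TMM, where 1 was called lower and 0 higher, and 1.53 under library totals. T cell, B and plasma cell, neutrophil and adipocyte marker sums overlapped between A3B and control pancreases. The part of these cells in the collagen, interferon and MHC class I values was not tested.

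Of 10 endogenous deaminases and cofactors, 3 rose in the pancreas, 0 were called in the liver, and 1 was called higher in the interaction, beside the 13.0% of all genes that rose in the pancreas and 6.83% called higher in the interaction. This was Adar, the adenosine deaminase that edits double-stranded RNA, at 2.05 ± 0.30 in the pancreas and 0.51 ± 0.27 in the liver (interaction 1.54 ± 0.38, adjusted p = 0.0182). The mouse gene Apobec3 stood at 202 and 75.9 CPM in control and 58.6 to 195 CPM with a median of 118 in A3B pancreases. It stood at 19.8 and 11.9 CPM in control livers and 19.6 to 71.4 CPM with a median of 31.7 in A3B livers, and its interaction of -1.46 ± 0.72 was not called (adjusted p = 0.194) and changed sign under library totals (0.44). The remaining lists are given by their interaction calls, beside the 6.83% and 4.99% of all genes. Hypoxia and glycolysis had 5 of 28 higher and 3 lower, DNA damage and uracil repair 3 of 29 higher, urea cycle and amino acid catabolism 1 of 27 higher and 2 lower, glucose metabolism 2 of 18 higher, the cell cycle 1 of 32 higher and immediate early transcription factors 1 of 23 higher. Chemokines (27), MHC class II (10) and the Reg family (7) had 0 calls by edgeR in the interaction at an adjusted p under 0.05, with 5, 2 and 1 at an unadjusted p under 0.05 and 1, 0 and 1 called by DESeq2.

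**Figure D5:**
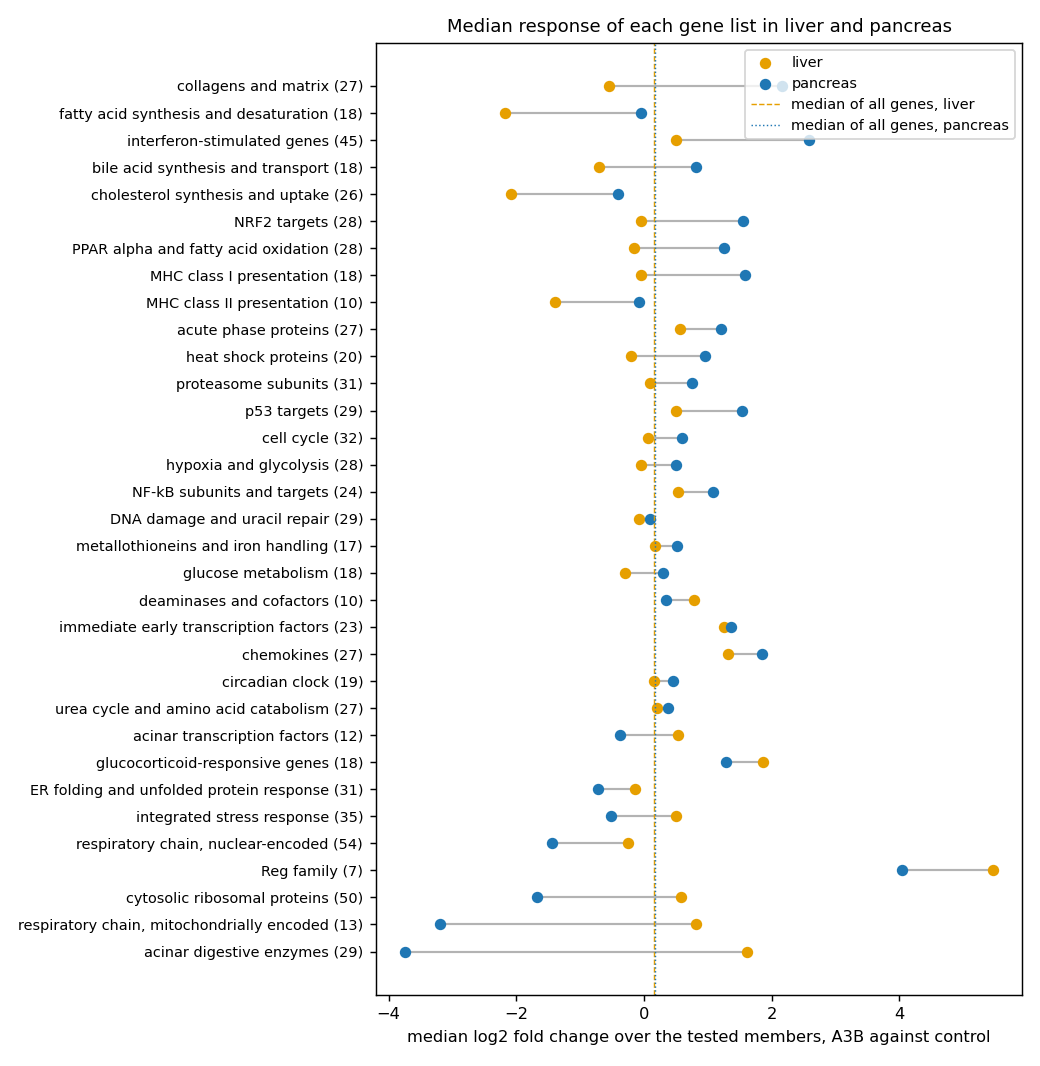
Median log2 fold change over the tested members of each of 33 gene lists in the liver and in the pancreas (number of members in brackets), ordered by the median interaction, with the medians of all genes as vertical lines. Collagens, fatty acid synthesis and interferon-stimulated genes lie at the top with the pancreas to the right of the liver, and acinar enzymes, mitochondrially encoded and ribosomal genes at the bottom with the pancreas to the left.

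The liver side of the classes was read in livers that did not make them. Another set of 3 A3B and 3 control livers, of other mice, was available as TPM per gene, and 10922 of the 19949 genes (54.7%) matched by symbol. The controls of this set are labelled with 15 days of treatment and the A3B livers with 14, 14 and 10 days, so treatment time and group cannot be told apart there. Control 11 carries the genotype label of A3B mice, against its title. By limma on log2(TPM + 1), 699 genes rose (6.07% of 11507) and 214 fell (1.86%), and over all matched genes the sign was that of the livers above for 74.6%. Among the shared rising genes, all 205 of 205 matched genes had the same sign and 122 were called. For the shared falling genes these numbers were 179 of 188 and 35, for the liver-restricted rising genes 76 of 77 and 34, and for the liver-restricted falling genes 206 of 237 and 38. All 14 matched opposite genes that rose in the liver had the same sign, with 6 called, and 66 of 84 that fell had the same sign, with 8 called. Of 606 matched pancreas-restricted rising genes, 283 had the sign of the other livers. Of the 606, 1 was called in these livers with that sign and 2 with the reverse sign. Of 379 falling genes 304 had the same sign and 1 was called. By limma, the log2 fold changes there were 3.52 (adjusted p = 0.0192) for Bhlha15, 5.15 (adjusted p = 0.00559) for Sult1e1, 4.63 (adjusted p = 0.0109) for Lcn2, -4.81 (adjusted p = 0.0109) for Dio1, -4.58 (adjusted p = 0.0233) for Slco1a1, -2.20 (adjusted p = 0.0267) for Srebf1 and -2.74 (adjusted p = 0.0354) for Pmvk. The opposite genes Serpina6, with limma's -5.24 (adjusted p = 0.0653), Hsd17b6, with -2.21 (adjusted p = 0.104), C6, with -1.95 (adjusted p = 0.230), and Slc39a5, with 2.55 (adjusted p = 0.0546), kept the direction of the liver without passing the test. The calls of this set rest on single livers: 1 gene was called without control 91, 9 without control 92, 1562 without control 11 and 55 without A3B mouse 23.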

How the data were processed

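The authors deposited, for each of the 16 liver and pancreas samples, a kallisto table of estimated counts and TPM for 119414 mouse transcripts (mm10). Of these, 116728 (97.8%) matched GENCODE M21 (GRCm38) and were summed to 35975 genes, which left out 0.225% to 1.46% of the counts of a sample. Summed estimated counts were rounded. The other liver set was deposited by the authors as TPM per gene, made from deduplicated alignments, and was tested separately with limma 3.58.1 (trend, robust) on log2(TPM + 1), keeping genes whose mean reached 1 TPM.

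Counts were fitted with edgeR 4.0.16 in R 4.3.3 (filterByExpr, TMM, robust quasi-likelihood F test) as 1 model of 4 groups. The contrasts were A3B against control in the liver, the same in the pancreas, and their difference. P-values were adjusted by the Benjamini-Hochberg method over the 19949 genes tested, and calls are at 0.05. The common biological coefficient of variation was 0.534. On simulated counts for these 16 samples with 200 genes given 4-fold interactions, the fit recovered 73% at a dispersion of 0.05 and 0 at a dispersion of 0.25. Dispersion is the square of that coefficient, so 0.25 was the setting closer to these data. The simulation gave all genes the same dispersion, and each gene the same mean in both tissues before the change, unlike these data. Intervals cover 95%, and a floor of 3 counts stands in for a group at or near 0.

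Same-numbered livers and pancreases come from the same mouse by their titles. The deviations from the group means of a mouse's organs correlated at -0.004 to 0.279 in the 5 A3B mice and at 0.00794 in the controls. The design without the block was kept as the main one, and the block was run as an alternative. Others were scaling by library totals, TMM within each tissue, DESeq2 1.42.0, limma on log2(TPM + 1), no filter, a separate fit per tissue, leaving out each sample, and the genotype labels in place of the titles.

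Named genes were, in each of 8 classes, the 4 of largest interaction (for shared genes, of the largest smaller effect). They had to be protein coding, to have at least 10 TPM in the mean of a group, to have all A3B samples on one side of the controls in each defining tissue, and to keep their signs under library totals. Up to 2 members of smallest interaction p were added for each list discussed. The genes, classes and 33 lists were chosen with earlier results of these data known. Results for 3 genes under this rule are not reported here.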

Additional observations from a re-analysis of the deposited data

Results flagged for a closer look

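Differences between the tissues within mice. For each of the 22 named genes of the opposite and restricted classes, the A3B effect in the pancreas differed from that in the liver by edgeR's interaction test over all 16 samples. Within the 7 mice that gave both organs, with the mouse as a block, the pancreas effect minus the liver effect on the log2 scale was 11.33 for Serpina6, 10.76 for Ugt1a9, 8.23 for Hsd17b6 and 5.64 for C6 among the genes that fell in the liver and rose in the pancreas. It was -7.16 for Bhlha15 and -7.08 for Slc39a5 among those of the opposite direction. Among pancreas-restricted genes it was 6.17 for Kcnj15, 5.96 for Acot12, 5.44 for Cpxm1 and 4.57 for Cyp2b10, and -6.97 for Gm10985, -6.26 for Fkbp11, -5.64 for Nphs1 and -4.39 for Lcmt1. Among liver-restricted genes it was -9.83 for Sult1e1, -9.83 for E030018B13Rik, -5.84 for Nnmt and -5.28 for Myo15b, and 7.36 for Slco1a1, 6.02 for Rgn, 5.60 for Cyp2c23 and 4.86 for Cyp7b1. Cyp2b10, E030018B13Rik, Nnmt, Slco1a1 and Cyp7b1 did not pass the test with the block. These genes were chosen for this difference, so the values are a description.

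A sample lay apart from the other 5 A3B samples in 6 of the 58 groups of named genes examined by Dixon's test (chance marks about 1 in 20 groups). All 6 were A3B livers. Serpina6 was lowest in mouse 49 at 1.06 CPM, C6 in mouse 48 at 2.06 CPM and Nphs1 in mouse 44 at 0.0167 CPM. Slco1a1 was highest in mouse 153 at 12.8 CPM, Gpnmb in mouse 49 at 51.8 CPM and Dio1 in mouse 48 at 6.74 CPM.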

How the results depend on the processing

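The counts of calls depended on the scaling and on single control libraries, and the signs of named genes on the group labels. Scaled by library totals, the calls numbered 8078 in the interaction (97.2% higher, against 57.8% with TMM), 13420 in the pancreas, 211 opposite, 5957 pancreas-restricted, 82 liver-restricted and 1623 shared. By limma on log2(TPM + 1) they numbered 8414 in the interaction (97.8% higher), 13086 in the pancreas, 7082 pancreas-restricted and 1181 shared. DESeq2 called 3754 genes in the interaction, 3351 in the liver, 273 opposite, 766 liver-restricted and 829 shared. TMM within each tissue and DESeq2 gave 48.3% and 48.4% higher among the interaction calls. A separate fit of the livers called 635 genes. The cause was not tested.

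With the mouse as a replicate block, edgeR called 1567 genes in the interaction (68.9% higher), and of 66 values of named genes 10 lost their call and 0 changed sign. With the mouse as a random effect in voom, 75 genes were opposite. With pancreases grouped by genotype label, the calls fell to 30 in the interaction, 949 in the liver, 0 in the pancreas, 0 opposite, 0 pancreas-restricted, 29 liver-restricted and 0 shared. By construction, both control pancreases and A3B pancreases 44 and 137 exchange groups there. The interaction then turned positive for Gm10985 (10.15), Fkbp11 (4.58), Nphs1 (4.08), Lcmt1 (3.69), Rbpjl (1.97), Selenos (1.41), Pycr1 (2.59), Fgf21 (0.75), Psmb10 (1.83), Rps27l (3.33), Ndufb9 (1.58), Atp5h (0.65), mt-Nd6 (1.09), mt-Nd5 (0.46), Rpl35 (1.47), Rpl14 (0.41), and negative for Acot12 (-0.89), Cyp2b10 (-2.26), Cpxm1 (-0.73), Hsd17b7 (-0.31), Dtx3l (-0.97), Cp (-0.03), Socs3 (-0.91), Tnfaip2 (-0.10), Bcl2l1 (-1.56), Hsp90ab1 (-0.50), Bcl6 (-1.24), Psmd1 (-0.36), Psmd11 (-0.75), Adar (-1.01), Col6a1 (-0.25). The pancreas effect turned positive for Sdr9c7 (3.25), Dio1 (1.76), Aqp8 (3.16), and negative for Lcn2 (-1.79), Chil3 (-0.35), Gpnmb (-1.06), Defb1 (-0.08), Cdkn1a (-0.93). Over up to 82 values under each other setting (the interaction of each named gene, and for shared genes the effect in each tissue instead), the sign turned for Apobec3, whose interaction was 0.44 under library totals and 0.54 by limma, and for no other. For the named genes of the classes, the naming rule had required the signs under library totals to be kept. The pancreas effects of restricted and list genes are not among these values: under library totals those of Manf (0.74), Atp5h (0.35), Rpl14 (0.50) and Hspe1 (0.63), called lower with TMM, turned positive, as did those of 6 named genes that were not called in the pancreas.

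Leaving out 1 library gave 544 to 3408 interaction calls, 334 to 2780 in the liver, 1666 to 5625 in the pancreas, 17 to 220 opposite, 265 to 1649 pancreas-restricted, 75 to 683 liver-restricted and 77 to 696 shared. Without control liver 45 the interaction count was 544 (24 opposite, 265 pancreas-restricted, 87 liver-restricted and 85 shared, with 394 in the liver). Without control liver 168 it was 697 (17 opposite, 353 pancreas-restricted, 75 liver-restricted and 77 shared, with 334 in the liver). Without control pancreas 45 it was 708 (45 opposite, 280 pancreas-restricted, 116 liver-restricted and 211 shared, with 1666 in the pancreas), and without control pancreas 168 there were 72 opposite and 192 liver-restricted genes. Without A3B liver 49 there were 220 opposite and 683 liver-restricted genes, and without A3B liver 137 66 opposite genes. With 1 control left in a tissue, that sample is assumed to vary like the other groups. Over these fits 1196 of 1312 values of named genes kept their sign and call and 116 lost the call, with 0 turned.

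In the other livers, 913 of 11507 genes were called, 54 with no filter and 1 to 1562 with a library left out: 55 without A3B 23, 1562 without control 11, 1 without control 91 and 9 without control 92. Precision depended on the dispersion: simulated 4-fold interactions were recovered for 73% of genes at a dispersion of 0.05 and for 0 at 0.25. The setting of 0.25 is the closer to the common dispersion of these data.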
